A study of Mus musculus with 12 samples.

Results

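The regions described here are the intergenic BRD3 regions of untreated RAW264.7, a mouse macrophage-like cell line used as a source of osteoclasts in culture. They were chosen by position alone. A region of the untreated BRD3 list on chromosomes 1 to 19 and X was taken when its midpoint lay outside every protein-coding RefSeq gene record (GRCm38) and more than 1 kb from any gene end. The rule gave 526 of the 3666 regions on those chromosomes, 14.3% of them (95% exact binomial interval 13.2% to 15.5%). Of the other regions, 2431 lay at a gene end, within 1 kb of it, and 709 inside a gene body. The 8 lists of the series together hold 16188 regions.

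Chromatin immunoprecipitation and sequencing (ChIP-seq) was done with antibodies to BRD2 and BRD3. Per the labels, the cells were untreated, or had 4 h of RANKL at 50 ng/ml, of I-BET at 500 nM, or of RANKL and I-BET together. All were fixed for 15 min in 1% formaldehyde. Each antibody and treatment has 1 library and 1 peak list, and the 4 input libraries have no list here. No value below has a replicate, so differences between treatments were not tested, and the intervals cover counting error only. Depth cannot be read from the lists, which hold no counts, and a region with no counterpart may lie below the calling threshold of that library.

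BRD2 and BRD3 are BET proteins: they carry paired bromodomains that bind acetylated lysines on histones, and they are found at active promoters and at enhancers, the distal elements that raise transcription of a gene from outside it. I-BET is a small molecule that sits in the bromodomain pocket and competes with acetylated histone. RANKL is the cytokine that turns macrophage-like precursors into osteoclasts, the cells that resorb bone. Away from promoters, stretches of neighbouring or long BET-bound elements often lie beside genes that define a cell's identity.

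Several regions lay beside genes of small regulatory RNAs. A total of 12 regions lay within 10 kb of a mature microRNA (miRNA). The miRNAs below are shown because their regions differed in which lists called them. They are the mature strands from RefSeq (GRCm38.p6), 5′ to 3′, with the seed (bases 2 to 8), the part that pairs with target messages, in capitals. They were chosen as examples after the values were seen.
mmu-miR-17-5p: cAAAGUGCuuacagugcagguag
mmu-miR-20a-5p: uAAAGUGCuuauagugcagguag
mmu-miR-18a-5p: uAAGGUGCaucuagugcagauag
mmu-miR-19a-3p: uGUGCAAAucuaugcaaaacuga
mmu-miR-19b-3p: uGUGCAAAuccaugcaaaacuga
mmu-miR-92a-3p: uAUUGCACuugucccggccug
mmu-miR-23a-3p: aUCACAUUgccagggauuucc
mmu-miR-27a-3p: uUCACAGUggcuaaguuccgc
mmu-miR-24-3p: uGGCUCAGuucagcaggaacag
mmu-miR-21a-5p: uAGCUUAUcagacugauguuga
mmu-miR-22-3p: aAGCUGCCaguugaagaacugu
mmu-let-7i-5p: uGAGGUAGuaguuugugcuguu
Of these, miR-17 and miR-20a share the seed AAAGUGC, and miR-19a and miR-19b share GUGCAAA.

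The first group is the miR-17-92 cluster, a growth-promoting miRNA cluster. A region of 2190 bp (chr14:115040615-115042804) ended 0.880 kb upstream of miR-17, and no other list had a call there. The second group is miR-23a, miR-27a and miR-24-2. Their region of 3682 bp (chr8:84200749-84204430) ended 4.13 kb upstream of miR-23a. It was 3688 bp wide in the BRD3 list under RANKL and had no BRD3 counterpart with I-BET. In the BRD2 lists it was 3615 bp wide under RANKL and 869 bp wide under RANKL with I-BET. The regions near miR-21a and miR-22 were likewise called under RANKL, at 2490 bp and 2385 bp, and in neither BRD3 list with I-BET. Only the let-7i region among these, of 1659 bp and overlapping the miRNA itself (chr10:122985210-122986868), had a BRD3 counterpart under I-BET, of 455 bp.

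Starts of long non-coding RNA (lncRNA) genes lay inside 39 of the regions. RefSeq windows of 300 bases, 250 before and 50 after the start, are shown for 5 of them (GRCm38.p6), 5′ to 3′ on the strand of the gene, with each CpG dinucleotide in capitals. CpG-rich windows mark the CpG island type of promoter. The first 3 lie in regions that were called again with BRD3 under I-BET, and the last 2 in regions that were not. They too were chosen as examples after the values were seen. Chaserr is at chr7:73558346-73558645 (minus strand), Snhg3 at chr4:132353637-132353936 (minus strand), Malat1 at chr19:5802623-5802922 (minus strand), A230028O05Rik at chr16:25059389-25059688 (plus strand) and Gm35413 at chr13:5803106-5803405 (minus strand).
Chaserr: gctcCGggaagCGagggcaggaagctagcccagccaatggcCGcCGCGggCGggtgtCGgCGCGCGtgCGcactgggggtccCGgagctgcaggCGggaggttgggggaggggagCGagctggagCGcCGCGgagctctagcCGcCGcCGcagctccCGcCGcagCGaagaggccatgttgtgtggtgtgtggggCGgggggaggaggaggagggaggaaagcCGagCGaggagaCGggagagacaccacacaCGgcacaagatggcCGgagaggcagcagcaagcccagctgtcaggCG
Snhg3: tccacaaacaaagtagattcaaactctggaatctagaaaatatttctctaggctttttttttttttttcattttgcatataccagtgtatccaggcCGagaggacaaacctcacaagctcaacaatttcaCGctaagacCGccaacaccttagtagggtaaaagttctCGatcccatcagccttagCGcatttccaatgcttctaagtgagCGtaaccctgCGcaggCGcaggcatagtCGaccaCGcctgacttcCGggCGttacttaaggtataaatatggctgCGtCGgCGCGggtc
Malat1: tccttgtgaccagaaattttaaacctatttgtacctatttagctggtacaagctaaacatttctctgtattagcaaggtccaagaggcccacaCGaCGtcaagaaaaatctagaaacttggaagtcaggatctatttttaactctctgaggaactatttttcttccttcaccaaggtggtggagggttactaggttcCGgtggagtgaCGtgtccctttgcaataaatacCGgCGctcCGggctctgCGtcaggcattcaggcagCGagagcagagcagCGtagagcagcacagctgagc
A230028O05Rik: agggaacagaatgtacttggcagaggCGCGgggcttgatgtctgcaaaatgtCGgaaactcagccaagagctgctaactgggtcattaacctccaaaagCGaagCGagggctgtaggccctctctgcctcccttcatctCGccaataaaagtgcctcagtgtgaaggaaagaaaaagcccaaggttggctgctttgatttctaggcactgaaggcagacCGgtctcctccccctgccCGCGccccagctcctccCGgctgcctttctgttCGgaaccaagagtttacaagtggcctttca
Gm35413: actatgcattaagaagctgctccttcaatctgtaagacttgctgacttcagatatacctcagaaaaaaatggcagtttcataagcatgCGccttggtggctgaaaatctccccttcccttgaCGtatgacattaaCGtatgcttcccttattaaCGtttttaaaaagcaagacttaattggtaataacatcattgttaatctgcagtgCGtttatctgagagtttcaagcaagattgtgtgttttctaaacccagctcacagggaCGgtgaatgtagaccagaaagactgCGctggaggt
The windows hold 30, 16, 10, 11 and 7 CpG in this order. Their sequences are taken up again below.

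Fewer of the intergenic regions than of the others were in the BRD3 list under I-BET. There, 160 of the 526 regions (30.4%, interval 26.5% to 34.5%) had a BRD3 counterpart, a region that overlaps by at least 1 bp, against 53.2% of all untreated BRD3 regions. Regions at gene ends were found again in 61.5% of cases and those in gene bodies in 41.7%. Under RANKL, 379 (72.1%, interval 68.0% to 75.9%) had a counterpart, near the 75.4% of all regions. With RANKL and I-BET together 213 (40.5%, interval 36.3% to 44.8%) did, against 64.2% of all regions and 73.3% of gene ends. The intergenic share thus lay near the background under RANKL and well under it in both lists made with I-BET.

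The BRD2 lists are shorter and held fewer of the regions. In untreated cells 50 (9.51%) had a BRD2 counterpart, against 8.51% of all regions. Under RANKL 133 (25.3%) did, against 20.1%, and under I-BET 97 (18.4%), against 13.1%. With RANKL and I-BET 22 (4.18%) did, against 3.60%. The intervals of the untreated share (7.14% to 12.3%) and the combined share (2.64% to 6.26%) hold their background. Those of the RANKL share (21.6% to 29.2%) and the I-BET share (15.2% to 22.0%) lie above theirs. Intergenic regions were wider, with a median of 1004 bp against 712 bp of all regions. Split by width, every interval of the RANKL and I-BET shares held its background. Above 1000 and up to 2000 bp, the RANKL share was 32.1% against 31.5% of all regions, and the I-BET share 23.5% against 22.7%. At least 1 BRD2 list held 175 regions (33.3%, against 28.4% of all), and 6 were in all 4 BRD2 lists. Cut to equal lengths by score, at 245 regions a BRD2 list, the RANKL and I-BET shares were 4.14% and 3.82%.

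Intergenic regions were wide, and the wide ones were those rarely called under I-BET. Widths ran from 303 to 6435 bp with a median of 1004 bp, against 674 bp at gene ends and 787 bp in gene bodies. Of the 526, 103 were over 2 kb (19.6%, interval 16.3% to 23.2%). The share over 2 kb was 3.41% at gene ends and 13.4% in gene bodies. Up to 500 bp, 49.6% of intergenic regions (60 of 121) and 47.7% of gene-end regions had a BRD3 counterpart under I-BET. Above 500 and up to 1000 bp the shares were 44.3% and 68.9%. Above 1000 and up to 2000 bp they were 17.9% (interval 12.3% to 24.7%) and 54.0%. Over 2 kb, 9 of 103 intergenic regions (8.74%, interval 4.07% to 15.9%) had one, against 41 of 83 at gene ends (49.4%, interval 38.2% to 60.6%) and 15.8% in gene bodies. Gene bodies had 37.6% up to 500 bp, 55.6% up to 1000 bp and 37.0% up to 2000 bp. Intergenic and gene-end regions thus had near shares among the narrowest regions and intervals that do not overlap in the wider steps, while over 2 kb the gene-body share lies inside the intergenic interval. With all 4 BRD3 lists cut to equal length by score the intergenic and gene-end shares over 2 kb were 9.23% and 55.1%. With the top 50% of each list they were 7.41% (interval 2.06% to 17.9%) and 22.5% (10.8% to 38.5%), and these intervals overlap.

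**Figure D1:**
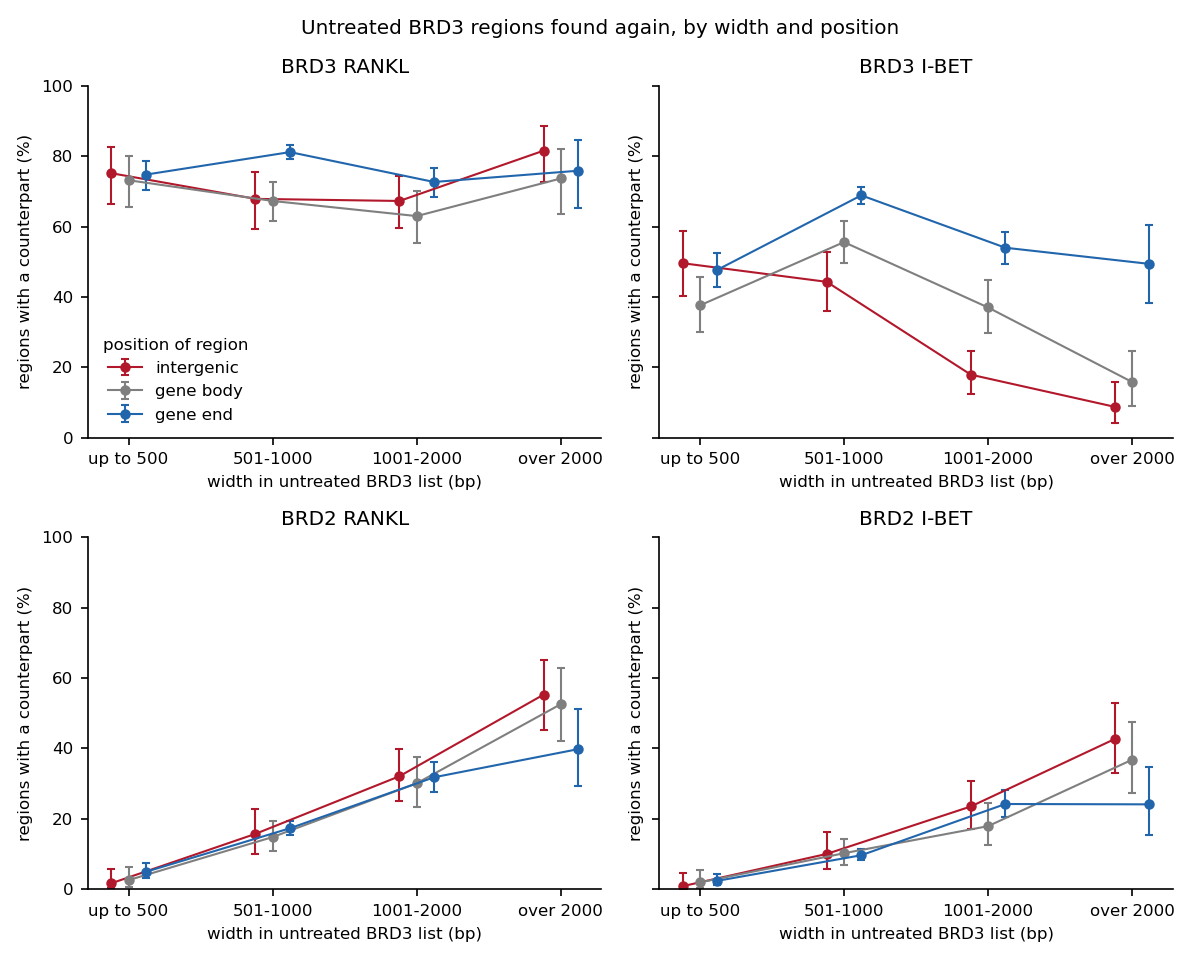
Share of untreated BRD3 regions with a counterpart of at least 1 bp (vertical axis, percent) by width in the untreated list (horizontal axis, bp), for intergenic, gene-body and gene-end regions and 4 other lists. Points are shares and bars 95% exact binomial intervals. Under I-BET the BRD3 share of intergenic regions falls from 49.6% to 8.74% with width, while the BRD2 share over 2 kb is 42.7%.

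The same wide regions were found again under RANKL and often carried BRD2 under I-BET. Of the 103 over 2 kb, 84 (81.6%, against 77.2% of all 281 regions of that width) had a BRD3 counterpart under RANKL and 13 (12.6%, against 27.4%) under RANKL with I-BET. BRD2 counterparts numbered 25 (24.3%, against 22.8%) in untreated cells and 57 (55.3%, against 49.8%) under RANKL. Under I-BET they numbered 44 (42.7%, against 35.2%) and under both agents 8 (7.77%, against 8.90%). The BRD2 shares of the untreated, RANKL, I-BET and combined lists have intervals that hold these backgrounds. Under I-BET, 40 of the 103 had a BRD2 call and no BRD3 call, 5 had BRD3 only, 4 had both and 54 had neither. Gene-body regions over 2 kb went the same way, with 30 of 95 holding BRD2 only and 10 BRD3 only. At gene ends 9 of 83 held BRD2 only and 30 BRD3 only. The BRD2 share of 42.7% depended on list length: it was 20.4% with the top 50% of each list and 9.23% with lists of equal length. The BRD3 share under I-BET was also 9.23% with lists of equal length.

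Counterparts that remained under I-BET were narrower where the untreated region was wide. Over all widths the median ratio of counterpart width to untreated width was 1.05 under RANKL (379 regions) and 1.02 under I-BET (160 regions). Over 2 kb it was 1.01 under RANKL (84 regions) and 0.533 under I-BET. For the 9 regions over 2 kb with a BRD3 counterpart under I-BET, the median width was 3043 bp in untreated cells and 1443 bp under I-BET, and all 9 were narrower, as were all 15 gene-body regions of that width with a counterpart. For the 13 under RANKL with I-BET the medians were 2771 and 589 bp, again with all 13 narrower. Gene-end regions over 2 kb narrowed as well. Under I-BET their medians were 2250 and 1032 bp (ratio 0.477), with 37 of 41 narrower. Under RANKL with I-BET they were 2250 and 827 bp, with 44 of 47 narrower. The narrowing was thus not particular to intergenic regions. BRD2 counterparts of the intergenic regions over 2 kb under I-BET had a median of 2091 bp where the untreated BRD3 region had 3051 bp (44 regions).

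**Figure D2:**
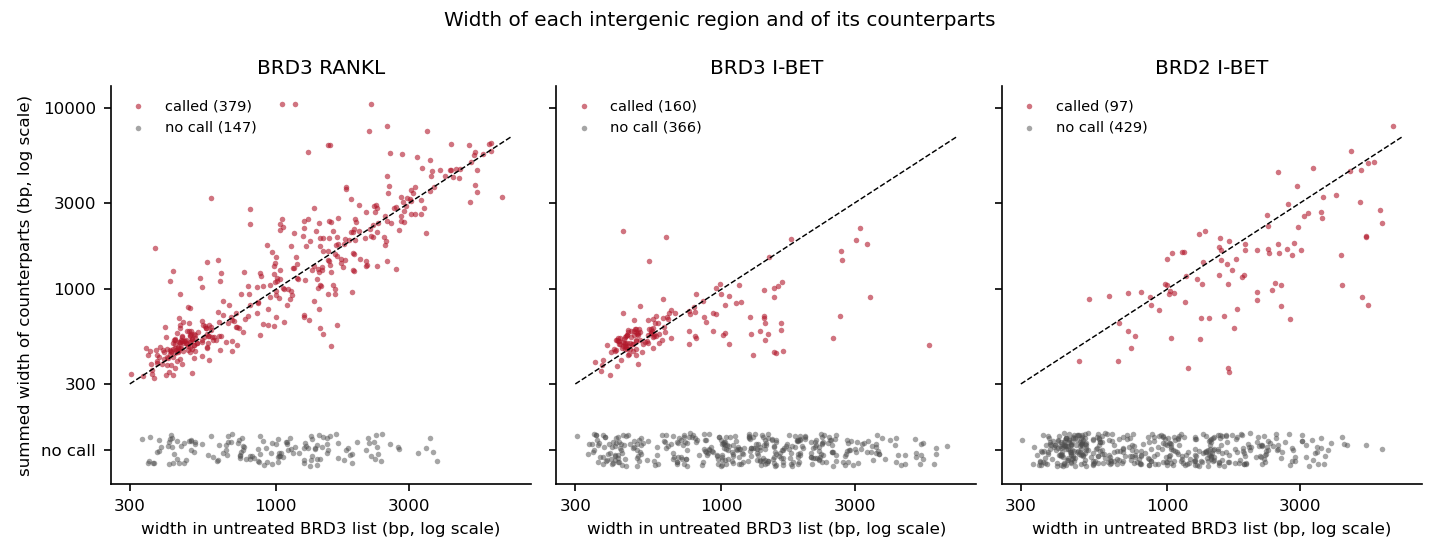
Width of each of the 526 intergenic regions in the untreated BRD3 list (horizontal axis, bp, log scale) against the summed width of its counterparts (vertical axis, bp, log scale) in the BRD3 lists under RANKL and I-BET and the BRD2 list under I-BET. Dashed lines mark equal width, and grey points at the bottom, spread for display, are regions with no call. The 379 counterparts under RANKL follow the line, and the 160 under I-BET are mostly narrow.

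Read across the BRD3 lists, the commonest pattern was presence in untreated and RANKL cells and absence from both I-BET lists. It held for 180 regions (34.2%), against 15.3% of all untreated regions, and their median width was 1768 bp. All 4 BRD3 lists held 136 regions (25.9%, against 47.1% of all), with a median width of 581 bp. The untreated list alone held 122 (23.2%, against 18.0%). A further 53 (10.1%, against 11.1%) were missing only from the I-BET list. The remaining patterns were rarer. Both I-BET lists but not the RANKL list held 13 (2.47%, against 3.68%), and the combined list alone of the other 3 held 11 (2.09%, against 2.37%). The RANKL and I-BET lists held 10 (1.90%, against 1.94%), and the I-BET list alone of the other 3 held 1 (against 0.491%). Of the 180, 79 (43.9%) had a BRD2 counterpart under RANKL and 59 (32.8%) under I-BET, against 34.9% and 27.6% of all regions of that pattern. Of the 136 found in all 4 lists, 20 (14.7%) and 12 (8.82%) did, against 16.7% and 9.67%. Score did not order the regions in this way: split into 4 groups of near equal size by the authors' score, the BRD3 share under I-BET ran from 27.3% to 32.1%. Of the 10 regions with the highest scores, 3 had a BRD3 counterpart under I-BET. The first of these 10, 1191 bp at an snRNA record near Rdm1 (chr11:101641281-101642471), was 1158 bp wide under RANKL and absent from the other 6 lists.

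Distance from the nearest protein-coding gene ran from 1.01 to 1330 kb with a median of 18.7 kb and quartiles of 6.30 and 50.8 kb. Under I-BET, the BRD3 share was 40.2% (41 of 102) at 1 to 5 kb, 29.7% at 5 to 10 kb and 31.3% at 10 to 25 kb. It was 26.8% at 25 to 50 kb, 20.3% (13 of 64) at 50 to 100 kb and 28.6% (20 of 70) beyond 100 kb. Neighbouring steps have overlapping intervals throughout. Under RANKL the shares were 82.4%, 67.6%, 64.9%, 67.1%, 79.7% and 74.3% in the same order, with no steady direction. The BRD2 share in untreated cells was 6.86%, 21.6%, 5.97%, 13.4%, 10.9% and 1.43% in the same order, again with no steady direction, against 8.51% of all regions.

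Width and distance were looked at together, because regions at 50 to 100 kb were wider (median 1334 bp) than those at 1 to 5 kb (863 bp). Among regions over 1000 bp, the BRD3 share under I-BET was 18.2% (8 of 44) at 1 to 5 kb, 18.4% at 5 to 10 kb and 16.4% at 10 to 25 kb. It was 16.3% at 25 to 50 kb, 8.11% (3 of 37) at 50 to 100 kb and 3.33% (1 of 30) beyond 100 kb. Among regions up to 1000 bp it ran from 56.9% at 1 to 5 kb to 37.0% at 50 to 100 kb and was 47.5% beyond. In every distance step the wide regions were found again under I-BET less often than the narrow ones. Where the strand of the nearest gene was known, 225 regions lay upstream and 181 downstream, with I-BET shares of 28.4% and 30.4%.

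**Figure D3:**
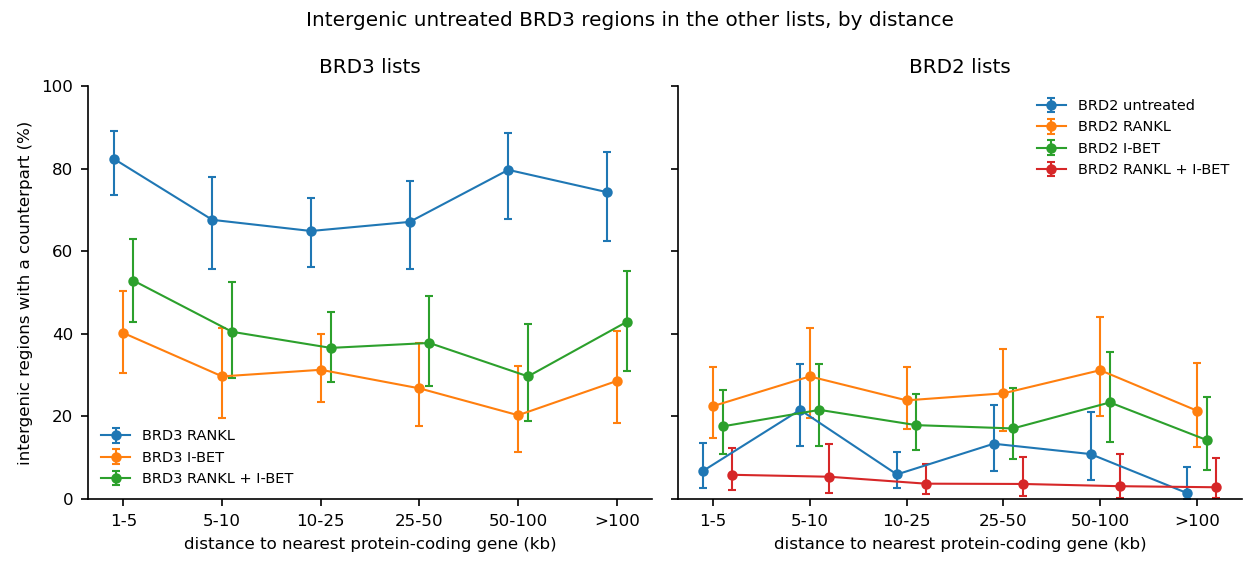
Share of the 526 intergenic regions with a counterpart (vertical axis, percent) by distance of the midpoint to the nearest protein-coding gene (horizontal axis, kb), for the other 3 BRD3 lists and the 4 BRD2 lists. Points are shares and bars 95% exact binomial intervals. The RANKL share stays between 64.9% and 82.4%, and the I-BET share between 20.3% and 40.2%.

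The most remote regions lay in gene deserts. In the desert upstream of Zeb2, a zinc finger repressor that shapes macrophage and other lineages, a region of 2308 bp 1330 kb from the gene (chr2:46441733-46444040) was 1346 bp wide under RANKL, 1142 bp wide with BRD2 under RANKL, and not called in the other lists. In the same desert, a region of 1788 bp (chr2:46370040-46371827) was 3565 bp wide under RANKL. A region of 493 bp 1320 kb from Arrdc3 (chr13:79564447-79564939) was called in all 4 BRD3 lists, at 510, 524 and 457 bp under RANKL, I-BET and both. The other 2 of the 5 farthest regions were 2158 bp nearest to Zeb2 (chr2:46365545-46367702), called in no other list, and 427 bp at 962 kb from Fam98a, 467 bp wide under RANKL and 377 bp under both agents. These 5 regions shared no single pattern.

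Non-coding records accounted for some of the regions. Of the 526, 128 lay within 1 kb of the end of a non-coding record (82 of lncRNA, 20 of tRNA), 74 inside one, and 324 (61.6%) in neither. At record ends 43.8% had a BRD3 counterpart under I-BET (interval 35.0% to 52.8%), against 27.2% (22.4% to 32.4%) with no record. Regions at record ends were also narrower, with a median of 808.5 bp against 1052 bp, and these shares were not split by width. Regions within 1 kb of a tRNA gene, which RNA polymerase III transcribes, numbered 21 and were narrow, with a median of 512 bp. Of these, 19 had a BRD3 counterpart under RANKL, 15 (71.4%, interval 47.8% to 88.7%) under I-BET and 18 under both agents. Among the 242 regions up to 1000 bp without a tRNA record, 45.0% (38.7% to 51.5%) had one under I-BET, and these intervals overlap. None of the 21 had a BRD2 counterpart in any of the 4 lists, which allows a share of up to 16.1% in each. Narrow regions rarely had one: of all 121 up to 500 bp, 2 had a BRD2 counterpart under RANKL. Without the regions near tRNA genes, the share kept under I-BET stayed within the interval given above. The lncRNA genes among the regions include Chaserr, which acts in cis on the chromatin remodeller gene Chd2, and Malat1, an abundant nuclear RNA. The Chaserr region was 1178 bp wide in untreated cells, 1503 bp under RANKL, 855 bp under I-BET and 502 bp under both. The Malat1 region measured 3323, 2599, 1770 and 1678 bp in the same order. It also had BRD2 at 2496 bp under RANKL, 4698 bp under I-BET and 1705 bp under both.

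The lncRNA start windows inside regions kept under I-BET were richer in CpG. With 1 window a region, the 18 windows in regions with a BRD3 counterpart under I-BET held a median of 25.5 CpG (range 4 to 43) and 61.3% G and C. The 21 windows in regions without one held a median of 9 (range 0 to 30) and 50.7%. Over all 11588 lncRNA windows of the table the median was 4.00, and over 21263 protein-coding ones 13.0. Among regions of 500 to 2000 bp, where widths were alike (medians 1178 and 1032 bp), the medians were 28.0 (13 windows) and 8 (12 windows). Exceptions ran both ways: Malat1, printed above, was kept with 10 CpG, and Dleu2 and Snhg8 were not with 29 and 30. The GC box GGGCGG, which holds a CpG itself, was in 11 of 18 and 6 of 21 windows on either strand, against 16.3% of all lncRNA windows and 35.7% of all start windows. The AP-1 motif TGANTCA was in 0 of 18 and 4 of 21 (9.31% of all lncRNA windows), and the C/EBP motif TTGCNNAA in 1 of 18 and 6 of 21 (12.0%). The other motifs searched, also on either strand, were the PU.1 type GAGGAAGT (1 of 18 and 3 of 21, 3.33% of all lncRNA windows), the ETS motif CCGGAAG (4 and 2, 3.89%), the E-box CACGTG (2 and 2, 5.89%) and the RUNX motif TGTGGTT (0 and 3, 6.29%). These are letter matches in windows of 300 bases and not sites.

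**Figure D4:**
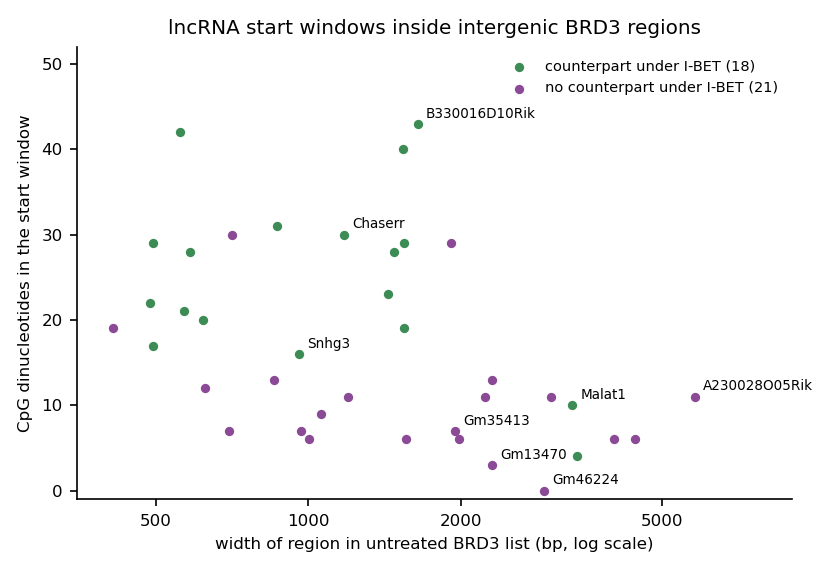
CpG dinucleotides in the 300-base lncRNA start window (vertical axis, count) against the width of the intergenic BRD3 region that holds it (horizontal axis, bp, log scale), for 39 regions, coloured by whether BRD3 was called there under I-BET. The 18 regions with a counterpart have a median of 25.5 CpG and the 21 without one 9, with overlap between them.

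The regions also gathered in places. Joined across gaps of up to 10 kb, 74 regions formed 32 clusters, 8 of them with 3 or more. The largest 2 had 4 each. One lay 82.4 to 97.2 kb from Tmco5 and spanned 18.9 kb, and the other lay between Hmga2, an architectural chromatin protein gene, and Msrb3 and spanned 31.5 kb. In both, all 4 regions were called under RANKL and none in either BRD3 list with I-BET. A cluster of 3 spanning 22.7 kb beside Lpp, a focal adhesion protein gene, followed the same pattern. It holds the A230028O05Rik start printed above, in a region of 5795 bp (chr16:25056715-25062509) that was 6356 bp wide under RANKL. That region carried BRD2 in all 4 lists, at 3945 bp in untreated cells, 4828 bp under RANKL, 2734 bp under I-BET and 670 bp under both. The cluster beside Chd2 differed: of its 3 regions, all were called under RANKL and under both agents and 2 under I-BET, with BRD2 in untreated cells at 2 and in no other BRD2 list. Of the 8 clusters of 3 or more, those beside Chd2 and Osbpl8 had a BRD3 call with I-BET and the other 6 had none.

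Among the single regions, the widest (6435 bp, chr19:5843728-5850162) lay nearest Frmd8, at 4.03 kb, with the nuclear lncRNA gene Neat1 as the nearest non-coding record. It was 3218 bp wide with BRD3 under RANKL, absent from both BRD3 lists with I-BET, and 5661 bp and 7939 bp wide with BRD2 under RANKL and I-BET. A region of 1769 bp at the lncRNA gene Ftx on chromosome X (chrX:103622179-103623947) kept its width in the BRD3 lists, at 1902, 1887 and 1818 bp under RANKL, I-BET and both.

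Listed macrophage genes were often the nearest gene of a region. Of 45 macrophage genes listed for this purpose, 12 (26.7%) were the nearest gene of at least 1 region, against 2.06% of all protein-coding genes. The list was chosen with earlier results of these data known, so this difference is not independent of them. These 12 had 19 regions, of which 13 were called with BRD3 under RANKL, near the 72.1% of all intergenic regions, and 3 under I-BET, where 30.4% of all were. None of the lists for B, T, erythroid, neutrophil, endothelial and mesenchymal cells had a gene nearest to a region, from 7, 9, 7, 8, 5 and 7 genes. With 2.06% as the share of all genes, lists of this size do not bear on the cell type. Distances to a gene name the neighbour and not the target of a region, and no expression was measured.

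Beside the macrophage genes, the lysozyme gene Lyz1 had a region of 3200 bp at 8.63 kb (chr10:117299896-117303095). It was 5351 bp wide with BRD3 under RANKL and absent from both BRD3 lists with I-BET. BRD2 was called there at 1099 bp in untreated cells, 4387 bp under RANKL and 2637 bp under I-BET. Ncf1, which encodes a subunit of the phagocyte NADPH oxidase, had a region of 1664 bp at 2.57 kb (chr5:134231366-134233029). It was 1784 bp wide under RANKL and absent with I-BET for BRD3, and 1544 bp and 1856 bp wide for BRD2 under RANKL and I-BET. Cx3cr1, the fractalkine receptor gene, had 2287 bp at 1.03 kb, the third nearest to the 1 kb limit of the rule. That distance is from the midpoint, and the region itself reaches over the upstream end of the gene. The Cx3cr1 region measured 2906 bp under RANKL for BRD3 and 1474 bp for BRD2, with no call with I-BET. All 3 regions thus appeared under RANKL and had no BRD3 call with I-BET, and 2 of the 3 had a BRD2 call under I-BET.

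Further regions near listed macrophage genes were followed in the same way. Ctss, the cathepsin S gene, had 1160 bp at 5.61 kb. Its counterpart was 1310 bp wide for BRD3 under RANKL, and for BRD2 604, 3041, 849 and 579 bp wide in untreated, RANKL, I-BET and combined cells. The region beside Csf1r, the gene of the receptor for the macrophage growth factor M-CSF, was 1348 bp wide in untreated cells (chr18:61098854-61100201). Its only overlapping call was BRD2 of 1410 bp under I-BET. A BRD3 region of 3266 bp under RANKL lay just beyond its end (chr18:61100526-61103791), so the locus was not without BRD3 under RANKL. Flanking the endotoxin co-receptor gene Cd14, though nearer to another gene, regions of 3632 and 2503 bp lay at 17.5 and 22.9 kb. They were 4484 and 4213 bp wide under RANKL, had no BRD3 call with I-BET, and with BRD2 were 2121 and 3591 bp under RANKL and 3225 and 4438 bp under I-BET. The Fc receptor gene Fcgr3 stood apart: its 3 regions all lay at tRNA genes and measured 407 to 932 bp, with 1 called under RANKL, 1 under I-BET and all 3 under both agents. A narrow region of 572 bp near Fcgr1 was called in all 4 BRD3 lists, at 507, 563 and 431 bp under RANKL, I-BET and both.

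Genes that hold back osteoclast formation were the nearest gene of 9 regions, with 5 of 13 listed genes represented (Bcl6, Ets2, Lilrb4a, Rbpj and Tnfaip3). That is 38.5% of a list chosen with earlier results of these data known, against 2.06% of all protein-coding genes. Of the 9, 8 were called with BRD3 under RANKL and 1 under I-BET, where 72.1% and 30.4% of all intergenic regions were, and 5 of the 9 lay beside Rbpj, of which 3 share 1 counterpart under RANKL. Rbpj, the DNA-binding partner of Notch that restrains osteoclast formation, had 5 regions from 9.04 to 118 kb. At 9.04, 12.4 and 15.5 kb, regions of 1173, 1050 and 2196 bp in untreated cells lay inside a single region of 10554 bp under RANKL, and none of the 5 was called in either BRD3 list with I-BET. The region at Lilrb4a, an inhibitory receptor gene, of 2923 bp at 31.2 kb was 2894 bp wide under RANKL for BRD3 and 3709 bp under I-BET for BRD2. Of 30 osteoclast genes 1 (3.33%, near the 2.06% of all genes) was a nearest gene: Nfatc1, the master regulator of osteoclast formation, had 1 region of 1249 bp.

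Immediate-early genes, which respond to signals within minutes and encode mostly transcription factors, had 13 regions nearest to 7 of 28 listed genes. Of these, 8 were called with BRD3 under RANKL and 2 under I-BET, beside the same 72.1% and 30.4% over all intergenic regions. The region 13.0 kb downstream of Fos, a subunit of AP-1, grew from 1300 bp to 5766 bp under RANKL. No other list overlapped the untreated region, while a BRD2 call of 574 bp under RANKL overlapped the wider one. Another Fos region, of 746 bp at 36.4 kb, was called in the untreated list alone. Junb had a region of 2812 bp at 2.86 kb (chr8:84980207-84983018) that was 2530 bp wide under RANKL for BRD3 and 2486 bp for BRD2. Jun had 1878 bp at 1.31 kb, inside the antisense record Junos, called in the untreated list alone. The Klf6 region with the Gm35413 start printed above was 1945 bp wide at 57.8 kb, 2349 bp under RANKL, and absent elsewhere. Btg2, an antiproliferative gene, had a region called in all 4 BRD3 lists. This region of 1429 bp at 14.4 kb measured 2325 bp under RANKL, 523 bp under I-BET and 541 bp under both, with BRD2 of 1896 bp under RANKL.

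Of the interferon and signalling genes, Socs3, a feedback inhibitor of cytokine receptors, had a narrow region kept in all 4 BRD3 lists. It measured 575, 637, 555 and 571 bp in untreated, RANKL, I-BET and combined cells, and it had no BRD2 call. Irf2, an interferon response repressor, had wide regions instead. At 3.88 kb, 2376 bp of BRD3 in untreated cells had no BRD3 counterpart and BRD2 of 1789 and 995 bp under RANKL and I-BET, and at 39.8 kb 2867 bp became 2714 bp under RANKL. The inflammatory list had 1 nearest gene among 26 (3.85%), Ptgs2, near the 2.06% of all genes, and the network of Myc and its partners had 0 of 13, from which nothing is read at that background.

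The nearest gene itself was bound with BRD3 at its ends in untreated cells for 107 of the 526 regions (20.3%, interval 17.0% to 24.0%), where 13.2% of all protein-coding genes were bound. Under I-BET, 33 of the 107 pairs kept a call at the gene end only, 12 at the intergenic region only, 20 at both and 42 at neither. Under RANKL, 55 kept both, 24 the region only and 20 the gene end only. The 107 pairs thus differed in which side was kept under I-BET, with more pairs keeping the gene end alone than the region alone. Over all untreated BRD3 regions, 61.5% at gene ends and 30.4% of intergenic ones had a BRD3 counterpart under I-BET. The pairs followed the same order, and nothing particular to them is read from it.

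Made by the same rule in each list, intergenic regions were 714 of the BRD3 regions under RANKL (18.6%), 191 under I-BET (8.56%) and 294 under both agents (10.3%), against 526 (14.3%) in untreated cells. Regions over 2 kb among them numbered 149 under RANKL and 1 in each list with I-BET, against 103 in untreated cells. In the BRD2 lists the shares were 13.5% in untreated cells, 18.3% under RANKL, 19.2% under I-BET and 15.1% under both. Distances are from the midpoint, and 4 of the 526 regions overlapped a start window of a protein-coding gene. At the limit of the rule, the members nearest to a gene, at 1006 to 1040 bp, lay beside Mex3b, Fhl3, Cx3cr1, 2610001J05Rik and Hs3st3b1. Those just outside it, at 899 to 965 bp, lay beside Alcam, Cst3, Orm1, Bmpr2 and Nt5c. Of the 5 just inside, 1 had a BRD3 counterpart under I-BET, and of the 5 just outside, 2 did.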

How the data were processed

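Per the submitters' processing notes, reads were handled with FastQC, Bowtie2 2.3.4.1 and MACS2 2.1.1.20160309 on mm10 (GRCm38), without settings. The single-end reads were 50 bp long, per the labels. The deposited lists hold positions and the authors' score of each region, which follows the mean over the joined peaks and was used only to rank or filter regions within a list. Per the peak names in the files, nearly every region joins peaks of 3 sets, numbered 3, 5 and 7, whose meaning no source here states.

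Positions are counted from 1. Gene records, strands and sequences came from RefSeq tables of GRCm38.p6. Regions overlapping by at least 1 bp were counterparts, and widths of several counterparts were summed. The 95% intervals of shares are exact binomial ones (Clopper-Pearson) and take in counting error alone. Depth is unknown and there is 1 library a group, so no treatment difference was tested. The scripts were tested on simulated data. Named regions were the 10 with the highest score, the 10 widest, the 5 farthest from a gene, up to 40 flanked within 100 kb by a listed gene, the 5 largest clusters, up to 10 by width for each of 2 patterns and up to 15 at non-coding records. Regions near miRNAs, those at the limit of the rule and the Chaserr, Dleu2, Snhg8, Nfatc1, Ptgs2 and Osbpl8 regions were chosen outside this rule, after values were seen. The members and the gene lists were chosen with earlier results of these data known. Python 3 with pandas and SciPy was used. Alternatives covered overlap, score, gene margins and distances. Regions beside 2 genes are not reported here.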

Additional observations from a re-analysis of the deposited data

How the results depend on the processing

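With 1 library a group, no replicate could be left out and no treatment difference tested. No paired analysis was possible because each antibody and treatment has 1 library and no result comes from a test. Depth is unknown, so a missing call is not an absent protein. Of 117 values under alternatives, 94 stayed within the interval of the value given (counts, within 1.5 times) and 23 moved. A reversed direction was not among the labels used, and the cause of the moves was not tested. The order of the BRD2 shares did change with lists of equal length, to 5.10% untreated, 4.14% under RANKL and 3.82% under I-BET. In the full lists they were 9.51%, 25.3% and 18.4%.

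With the top 50% of each list by score (256 regions left), the BRD3 shares were 50.8% under RANKL, 20.3% under I-BET and 25.4% under both. The BRD2 shares were 4.69%, 15.2%, 10.2% and 1.56% in untreated, RANKL, I-BET and combined cells. Over 2 kb, the BRD2 share under I-BET was then 20.4% and the gene-end BRD3 share 22.5%. With lists of equal length, 2232 for BRD3 and 245 for BRD2, the BRD3 shares were 53.5% under RANKL and 32.2% under both. The BRD2 shares were 5.10%, 4.14% and 3.82% in untreated, RANKL and I-BET cells, and 9.23% over 2 kb under I-BET. A margin of 5 kb moved wide gene-end regions under I-BET to 37.4%. Away from non-coding records too, 324 regions remained. By distance to a record of any type, shares were 90.9% (50 to 100 kb) and 90.0% (over 100 kb) under RANKL, and 17.2% (25 to 50 kb) and 45.5% (50 to 100 kb) under I-BET, from 10 to 29 regions each. With gaps of 5 kb there were 21 clusters. The alternatives over 2 kb and without tRNA genes were chosen after seeing the data. The share over 2 kb kept by BRD3 under I-BET ran from 5.33% to 9.23%.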

Other observations

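The other lists held intergenic regions that no untreated BRD3 region overlaps. Under RANKL, 331 of the 714 intergenic BRD3 regions (46.4%, exact 95% interval 42.7% to 50.1%) had no untreated counterpart, with a median width of 877 bp and 46 over 2 kb. Of the 331, 13 had a listed macrophage gene as the nearest gene, from 10 of 45 genes. Another 8 had a listed immediate-early gene, from 7 of 28. No share over all protein-coding genes was computed for these regions. The lists were chosen with earlier results of these data known, so no enrichment is read from these counts. The scavenger receptor gene Msr1 had a region of 3453 bp at 8.87 kb, with BRD2 of 1267 bp under RANKL. The Toll-like receptor gene Tlr2 had one of 2003 bp at 2.44 kb, called in the BRD3 list under RANKL only. Beside Csf1r, a region of 3266 bp lay at 3.41 kb, with BRD2 of 2844 bp under RANKL and 1342 bp under I-BET. It starts just beyond the end of the untreated Csf1r region given above. Rbpj gained 3 more, of 1999, 2392 and 3075 bp at 101, 64.7 and 45.6 kb. Each of these is from 1 library, and an absence in untreated cells may be a call below threshold.

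Under I-BET, 31 of 191 intergenic BRD3 regions (16.2%, interval 11.3% to 22.2%) lacked an untreated counterpart. Their median width was 506.0 bp and none was over 2 kb. One lay 85.1 kb from Cebpb, a macrophage transcription factor gene, at 563 bp. It overlaps a region of 2442 bp called under RANKL.

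In the BRD2 list under I-BET, 105 of 204 intergenic regions (51.5%, interval 44.4% to 58.5%) had no untreated BRD3 counterpart. The widest, 38569 bp at chr9:2999873-3038441, was called in no other list. A region of 5401 bp at chr2:98662080-98667480 was likewise in that list only, as were regions of 4283, 3246 and 3227 bp. Whether these calls from a single library reflect BRD2 binding was not tested. A region at chr17:39842886-39848939 was called in all 4 BRD2 lists at 5328 to 5934 bp. The 5328 bp, under both agents, is the sum of calls of 3455 and 1873 bp. It was also called in the BRD3 lists under RANKL (6054 bp) and under both agents (6077 bp). The untreated and I-BET BRD3 lists had no call there. Whether the calls at this position reflect BRD2 or BRD3 binding was not tested either.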
